A study of Mus musculus with 28 samples.

Results

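The matrix metalloproteinases (MMPs) and the tissue inhibitors of metalloproteinases (TIMPs) were examined in tail tendons of Fosl2(Tg) mice, a model of systemic sclerosis, and of non-transgenic controls (WT). The genes were chosen by name: 6 MMPs (*Mmp2*, *Mmp3*, *Mmp9*, *Mmp13*, *Mmp14* and *Mmp19*) and 4 TIMPs (*Timp1*, *Timp2*, *Timp3* and *Timp4*), 10 of the 25719 gene identifiers in the count tables. All 10 were matched by identifier to a mouse gene symbol. Bulk RNA-sequencing of tail tendon fascicles gave 1 library for each of 28 mice, with Fosl2(Tg) mice on the C57Bl6/J background. The early groups comprised 7 WT and 8 Fosl2(Tg) mice of 6 to 8 weeks, all male. The established groups, older than 14 weeks, comprised 6 WT mice (5 female, 1 male) and 7 Fosl2(Tg) mice (6 female, 1 male), so stage and sex could hardly be told apart. In Fosl2(Tg) mice, a randomly inserted vector expresses murine *Fosl2* together with a fluorescent reporter from the promoter of an MHC class I gene, which is active in most cell types, and WT mice came from the same breeding without the vector. The comparisons ask whether the transcripts of matrix-degrading enzymes and of their inhibitors differ between genotypes at each stage.

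MMPs are zinc-dependent enzymes that are made as inactive proenzymes and cleave collagens, proteoglycans and other matrix proteins once their propeptide is removed. TIMPs bind the active site of MMPs and block it, and the ratio between both families is commonly read as a rough measure of the capacity to degrade matrix. In tendon, a tissue built mainly of type I collagen, these enzymes take part in growth, adaptation to load and repair. *Fosl2* encodes Fra-2, a subunit of the AP-1 transcription factor, and AP-1 sites in the promoters of several MMP genes are a textbook example of inducible transcription. Transcript levels say nothing about activation of the proenzymes or about protein.

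The promoter windows of the members were read from the GRCm39 genome, from 250 bases before to 50 bases after the start of the canonical GENCODE release M39 transcript. The AP-1 motif TGANTCA, which is its own reverse complement and was searched on both strands, was found in 4 of the 10 members and in 7.14% of the windows of 21770 protein-coding genes. The RUNX motif AACCACA, searched on both strands, was found in *Mmp9* and *Mmp13* and in 5.03% of all windows, and neither of its matches in the members overlapped an AP-1 match. A match is a description of the sequence and does not show that a factor binds there. The 250 bases before the start of the 4 members with an AP-1 match are shown because Fra-2 is an AP-1 subunit, with the AP-1 match in capitals and the strand of the gene, which was plus for all 4. The first base of the match lay 35 bases before the start in *Mmp13* (chr9:7272264-7272513), 46 in *Mmp3* (chr9:7445572-7445821), 69 in *Mmp9* (chr2:164789889-164790138) and 26 in *Mmp19* (chr10:128626523-128626772). The canonical *Mmp9* transcript starts inside the annotated gene, downstream of a longer transcript's start.
Mmp13: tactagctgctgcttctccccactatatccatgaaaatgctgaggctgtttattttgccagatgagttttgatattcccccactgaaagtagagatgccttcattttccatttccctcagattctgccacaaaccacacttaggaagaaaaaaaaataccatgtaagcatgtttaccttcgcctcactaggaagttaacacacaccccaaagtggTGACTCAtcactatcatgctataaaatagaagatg
Mmp3: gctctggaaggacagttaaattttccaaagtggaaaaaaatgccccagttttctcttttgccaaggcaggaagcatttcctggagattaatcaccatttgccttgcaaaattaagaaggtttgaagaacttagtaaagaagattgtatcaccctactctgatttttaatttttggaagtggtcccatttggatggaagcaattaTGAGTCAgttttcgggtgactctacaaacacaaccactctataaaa
Mmp9: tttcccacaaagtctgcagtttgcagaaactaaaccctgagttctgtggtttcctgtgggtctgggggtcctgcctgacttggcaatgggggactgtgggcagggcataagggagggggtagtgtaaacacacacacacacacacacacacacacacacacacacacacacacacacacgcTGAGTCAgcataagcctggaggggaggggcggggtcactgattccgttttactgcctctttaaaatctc
Mmp19: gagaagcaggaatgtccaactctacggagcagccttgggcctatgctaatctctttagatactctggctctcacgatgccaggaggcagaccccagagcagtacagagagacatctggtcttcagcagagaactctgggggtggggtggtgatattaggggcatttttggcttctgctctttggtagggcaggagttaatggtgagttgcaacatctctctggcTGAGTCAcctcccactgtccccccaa

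The transgene was checked first. *Fosl2* ranged from 58.8 to 136 CPM (counts scaled to the library total) in early WT mice (median 75.8) and from 63.4 to 156 CPM in early Fosl2(Tg) mice (median 87.1). In the established groups it ranged from 78.1 to 169 CPM in WT (median 105) and from 121 to 160 CPM in Fosl2(Tg) mice (median 145). The genotypes overlapped at both stages. The log2 fold change of Fosl2(Tg) against WT was 0.20 (SE 0.24, FDR 0.918) early and 0.38 (SE 0.15, FDR 0.142) at the established stage, by edgeR's quasi-likelihood test, the FDR being the Benjamini-Hochberg adjusted p over all tested genes. *Fosl2* transcript therefore did not separate the genotypes and does not check the labels. FDR below refers to this test unless another tool is named, and a gene was called at an FDR of at most 0.05.

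Counted reads per library ranged from 9645598 to 66894396, and CPM were scaled by the TMM method over all 28 libraries. Of 15138 genes tested at the early stage 6 were called, and of 15862 at the established stage 1032. Tendon markers were abundant in every library, with no marker of the list of 10 at 0. Their summed level was 100820 to 191481 CPM in established WT and 7089 to 79698 CPM in established Fosl2(Tg) mice, which did not overlap, and 192643 to 548357 CPM in early WT and 251676 to 617927 CPM in early Fosl2(Tg) mice. *Col1a1* and *Col1a2* weighed most in the established WT sum, with medians of 74362 and 41568 CPM, against 10241 and 6886 CPM in established Fosl2(Tg) mice. The other markers of the list also had lower medians in established Fosl2(Tg) than in established WT mice. The sum of 12 skeletal muscle markers varied within every group, from 45.0 to 18152 CPM over the 28 mice. In bulk tissue, fewer cells of a type and less RNA per cell cannot be told apart, and the part of these shifts in the member levels was not tested.

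Per kilobase of exon, *Timp2* was the most abundant member and *Mmp9* the least. Median levels over the 28 mice were 619 CPM per kb for *Timp2*, 98.8 for *Mmp2*, 39.8 for *Timp3* and 24.7 for *Mmp14*. *Timp1* (9.59 CPM per kb), *Mmp3* (8.61) and *Mmp19* (2.17) followed, and *Mmp13* (0.478), *Timp4* (0.272) and *Mmp9* (0.0263) were the lowest by median. Every *Timp2* value lay above every *Mmp2* value, and the ranges of all other neighbours in this order overlapped. *Mmp13* was the exception in range: its highest CPM was 3683 times its lowest, against 3.20 times for *Timp2* and 28.8 times for *Timp4*, the next widest of the members detected in every library.

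**Figure D1:**
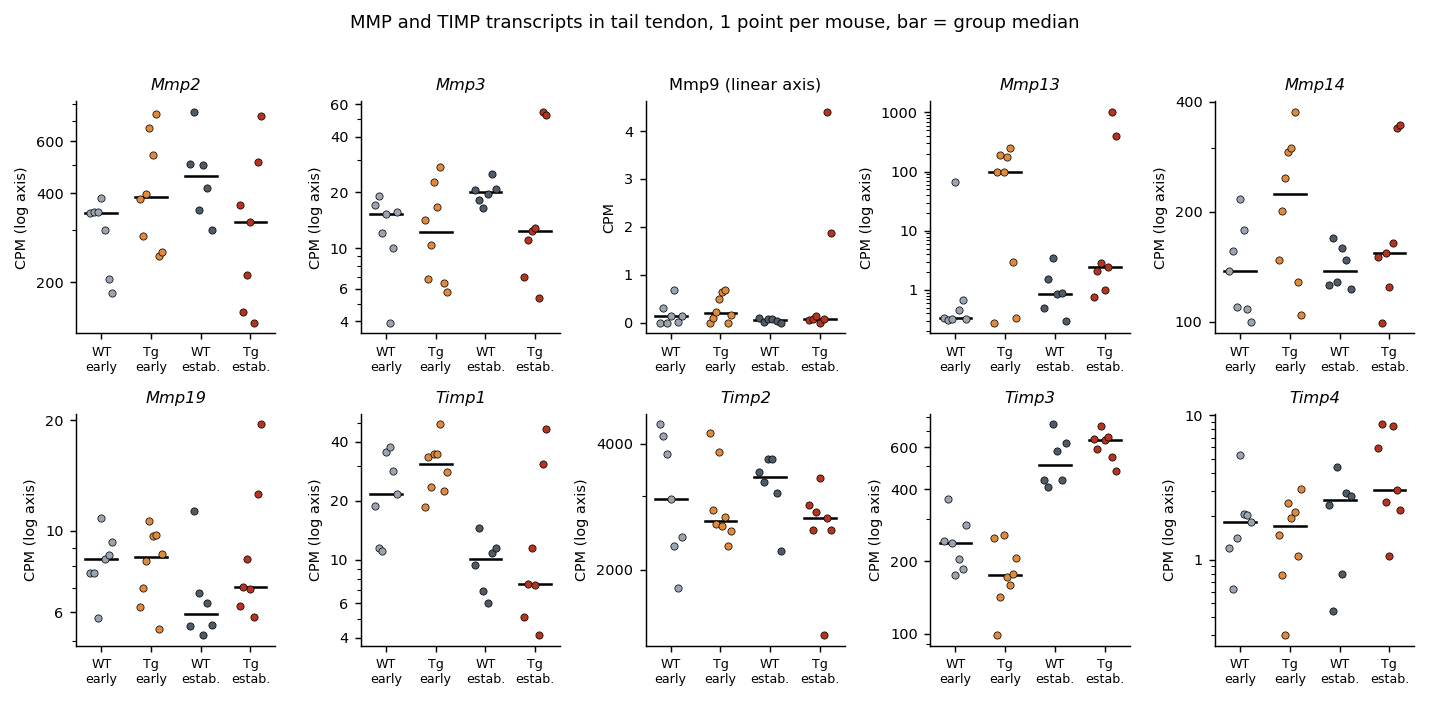
CPM of the 10 members in each mouse by genotype and stage, on log axes except for *Mmp9*, with points for single mice in replicate order and bars for group medians. *Mmp13* splits into mice up to 3.43 CPM and mice from 66.9 CPM, and *Timp3* is higher in all established than in all early mice.

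At the early stage, no member was called by edgeR among the 9 tested (*Mmp9* did not pass the filter on low counts), where 0.0396% of all genes tested were called. DESeq2 and limma voom also called none, where they called 25 of 16667 and 10 of 15138 genes tested. An unadjusted p under 0.05 by edgeR was reached by *Mmp13* and *Mmp14*, both higher in Fosl2(Tg) mice, and by 917 of all 15138 genes tested. The median log2 fold change of the 9 members was 0.06, against -0.01 over all genes tested. Among established mice, 1 of 9 members was called, *Mmp13*, which was higher in Fosl2(Tg) mice, where 6.51% of all genes tested were called. No other member reached an unadjusted p under 0.05 there, and the median log2 fold change was 0.48, against 0.01 over all genes tested. That median was the value of *Mmp14*, which was -0.03 without established Fosl2(Tg) replicates 6 and 7, mice chosen for their values. DESeq2 called *Mmp13* and *Mmp9*, where it called 2177 of all 18592 genes tested. With quality weights, limma voom called no member, and 1984 of all 15862 genes tested.

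**Figure D2:**
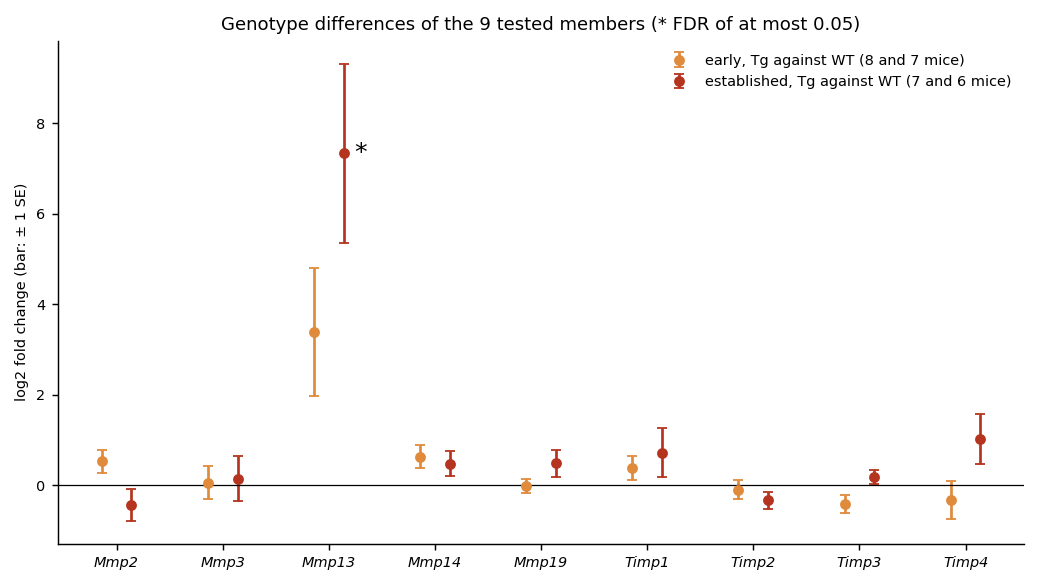
log2 fold change of Fosl2(Tg) against WT (y axis, bars ± 1 SE) for the 9 members tested, early and established. *Mmp13* has the largest values, 3.39 and 7.34, with SEs of 1.42 and 1.99, and all other values lie between -0.43 and 1.02.

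*Mmp13* (ENSMUSG00000050578, chromosome 9, 7272514 to 7283331, plus strand) encodes collagenase-3, the main interstitial collagenase of the mouse, which cleaves fibrillar collagens. In early WT mice, it stood at 66.9 CPM in replicate 4 and between 0.31 and 0.67 CPM in the 6 others. In early Fosl2(Tg) mice, replicates 2 to 6 held 98.4, 192, 99.6, 178 and 250 CPM, while replicates 1, 7 and 8 held 0.28, 2.96 and 0.33 CPM. In established WT mice, the values ran from 0.30 to 3.43 CPM (median 0.86). In established Fosl2(Tg) mice, replicates 6 and 7 held 1022 and 404 CPM, and the 5 others lay between 0.77 and 2.84 CPM, within the range of the WT mice. Sorted by level, the 28 mice had their largest step between 3.43 and 66.9 CPM, a 19.5-fold gap with 20 mice below and 8 above it. Above it were 1 of 7 early WT, 5 of 8 early Fosl2(Tg), 0 of 6 established WT and 2 of 7 established Fosl2(Tg) mice.

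The early log2 fold change of *Mmp13* was 3.39 (SE 1.42, FDR 0.775), with 5 of 8 Fosl2(Tg) mice above every WT mouse and 1 below every WT mouse. Without early WT replicate 4, it was 7.86 with an FDR of 0.0529, still short of the threshold. That mouse is singled out here for its high value, so the fit without it gives no test of the genotype. The established log2 fold change was 7.34 (SE 1.99, FDR 0.0444), with 2 of 7 Fosl2(Tg) mice above every WT mouse. The call ended in 10 of the 13 fits with 1 library left out, where the FDR lay between 0.0519 and 0.0885, as well as in fits with sex as a covariate (log2 fold change 6.87, FDR 0.0585), without the 2 males (7.46, FDR 0.0725) and with no filter on low counts (7.33, FDR 0.0518). The value itself was smaller with limma voom (2.62, FDR 0.347) and in the fit blocked by replicate number (1.43, FDR 0.501). Without replicates 6 and 7, which were chosen for their values and so give no test of the genotype, the log2 fold change was 0.56. The difference between the stage-wise effects was 3.93 (SE 2.22, FDR 0.269 for the interaction). No member was called for it among the 9 tested by edgeR, where 7.43% of all genes tested were called. Nor was any called by DESeq2 or limma voom, where 1780 of 17596 and 1951 of 16082 genes tested were called. For the interaction by edgeR, 2 of 9 members reached an unadjusted p under 0.05, *Mmp2*, lower, and *Timp3*, higher. Of all 16082 genes tested, 4070 did so.

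The labels carry a running library number, and the 8 libraries above the gap were numbered 53 to 58 and 76 to 77, without interruption in either run. The first run held 5 Fosl2(Tg) libraries and 1 WT library, and the second held 2 Fosl2(Tg) libraries. What the number stands for (order of dissection, extraction or library preparation) is not given in the sources used here. The second run held no WT library, so order and genotype cannot be told apart there. In the first run, the WT library (early WT replicate 4, number 58) held 66.9 CPM of *Mmp13*. Outside it, early Fosl2(Tg) libraries 52, 62 and 63 held 0.28, 2.96 and 0.33 CPM, and the other early WT libraries at most 0.67 CPM. The part of order and of genotype in these values was not tested. *Mmp14* followed the same order, as the plot by library number shows.

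**Figure D3:**
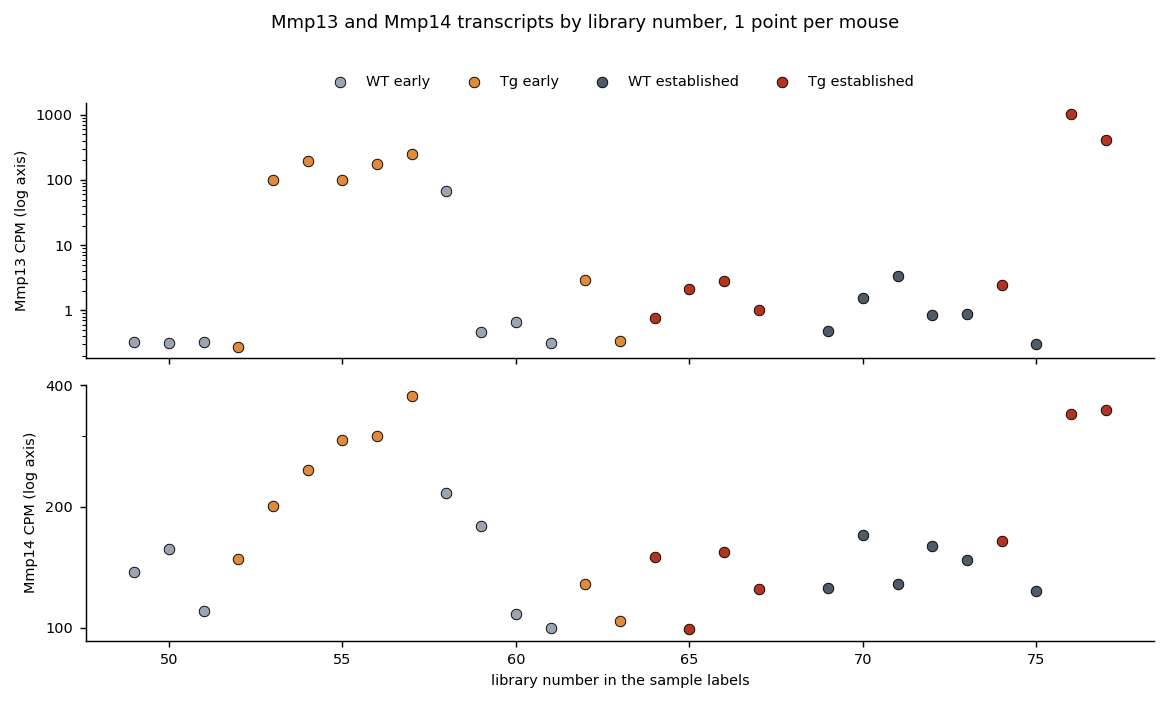
CPM of *Mmp13* (top) and *Mmp14* (bottom), both on log axes, against the library number in the labels, coloured by group. Libraries 53 to 58 and 76 to 77 hold the 8 *Mmp13* values of 66.9 CPM and higher, all others being at 3.43 CPM or lower, and *Mmp14* was at 200.4 CPM or higher in these 8 libraries and at 179 CPM or lower in all others.

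*Mmp14* (ENSMUSG00000000957, chromosome 14, 54668878 to 54682821, plus strand) encodes the membrane-anchored MT1-MMP, which cleaves collagen at the cell surface and, bound to TIMP-2, activates proMMP-2. It ranged from 99.7 to 216 CPM in early WT (median 137) and from 104 to 376 CPM in early Fosl2(Tg) mice (median 224). The 5 early Fosl2(Tg) mice with high *Mmp13* had the 5 highest *Mmp14* values of their group, and 4 of 8 exceeded every WT mouse. The early log2 fold change was 0.64 (SE 0.26, FDR 0.767). In established mice, it ranged from 123 to 169 CPM in WT (median 138) and from 99.2 to 347 CPM in Fosl2(Tg) mice (median 154), where replicates 6 and 7 stood at 340 and 347 CPM. The established log2 fold change was 0.48 (SE 0.28, FDR 0.282), and it was -0.03 without those 2 mice.

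*Mmp2* (ENSMUSG00000031740, chromosome 8, 93553902 to 93580049, plus strand), or gelatinase A, degrades denatured collagen and basement membrane collagen and was the most abundant MMP in 27 of the 28 mice. It ranged from 184 to 387 CPM in early WT (median 343) and from 246 to 742 CPM in early Fosl2(Tg) mice (median 390), where 4 of 8 exceeded every WT mouse. Established mice ranged from 301 to 753 CPM in WT (median 458) and from 146 to 731 CPM in Fosl2(Tg) mice (median 320), where 3 of 7 lay below every WT mouse. The log2 fold change was 0.54 early (SE 0.25, FDR 0.826) and -0.43 at the established stage (SE 0.36, FDR 0.462). The stage-wise values had opposite signs, with an interaction of -0.97 (SE 0.45, FDR 0.171) that did not pass the threshold.

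*Mmp9* (ENSMUSG00000017737, chromosome 2, 164780439 to 164797771, plus strand), or gelatinase B, an enzyme typical of neutrophils, macrophages and osteoclasts, was barely detected, with 196 counts over all 28 libraries. It was at 0 in 6 libraries, where a limit of 3 counts allows up to 0.151 to 0.278 CPM, covering counting error only. The early groups reached 0.69 CPM in each genotype. Established WT mice stayed at or below 0.11 CPM, and established Fosl2(Tg) replicates 6 and 7 reached 4.40 and 1.86 CPM, while the 5 others held at most 0.14 CPM. With no filter on low counts, the established log2 fold change was 3.86 (SE 1.22, FDR 0.0898), and DESeq2 gave 4.04 (SE 1.14, FDR 0.00801), those 2 mice holding the highest values of all 28. Neutrophil markers were at or near 0: all 10 had a median under 1 CPM in each group, and their sum was between 0.21 and 1.61 CPM in 27 mice and 7.51 CPM in established Fosl2(Tg) replicate 6. Established Fosl2(Tg) replicates 6 and 7 also held the highest macrophage marker sums of their group, 1348 and 1555 CPM, against 706 to 1223 CPM in established WT. Their osteoclast marker sums, 321 and 361 CPM, were the highest of their group but below the established WT range of 365 to 474 CPM. The part of these cell types in the *Mmp9* values was not tested.

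*Mmp3* (ENSMUSG00000043613, chromosome 9, 7445822 to 7455975, plus strand), or stromelysin-1, cleaves proteoglycans and other matrix proteins and activates other proMMPs. It ranged from 3.93 to 19.1 CPM in early WT (median 15.3) and from 5.76 to 27.5 CPM in early Fosl2(Tg) mice (median 12.3). Established WT mice lay in a narrow range, from 16.4 to 25.1 CPM (median 20.2). Established Fosl2(Tg) mice fell on both sides of it without touching it, with 5 mice from 5.34 to 12.8 CPM and replicates 6 and 7 at 54.6 and 52.4 CPM. The mean difference was correspondingly small, with a log2 fold change of 0.15 (SE 0.50, FDR 0.875), against 0.06 (SE 0.36, FDR 0.983) early. Without replicates 6 and 7, which were chosen for their values, the established value was -1.04 and was called (FDR 0.0149), which gives no test of the genotype.

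*Mmp19* (ENSMUSG00000025355, chromosome 10, 128626773 to 128636695, plus strand), an MMP with basement membrane substrates, ranged from 5.20 to 19.5 CPM over the 28 mice, again with the 2 highest values, 12.6 and 19.5 CPM, in established Fosl2(Tg) replicates 6 and 7. The log2 fold change was -0.02 (SE 0.16, FDR 0.986) early and 0.49 (SE 0.30, FDR 0.298) at the established stage. Its exons share 1084 bases with *Tmem198b* on the other strand, and the library kit did not mark strand, so reads there cannot be assigned with certainty.

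**Figure D4:**
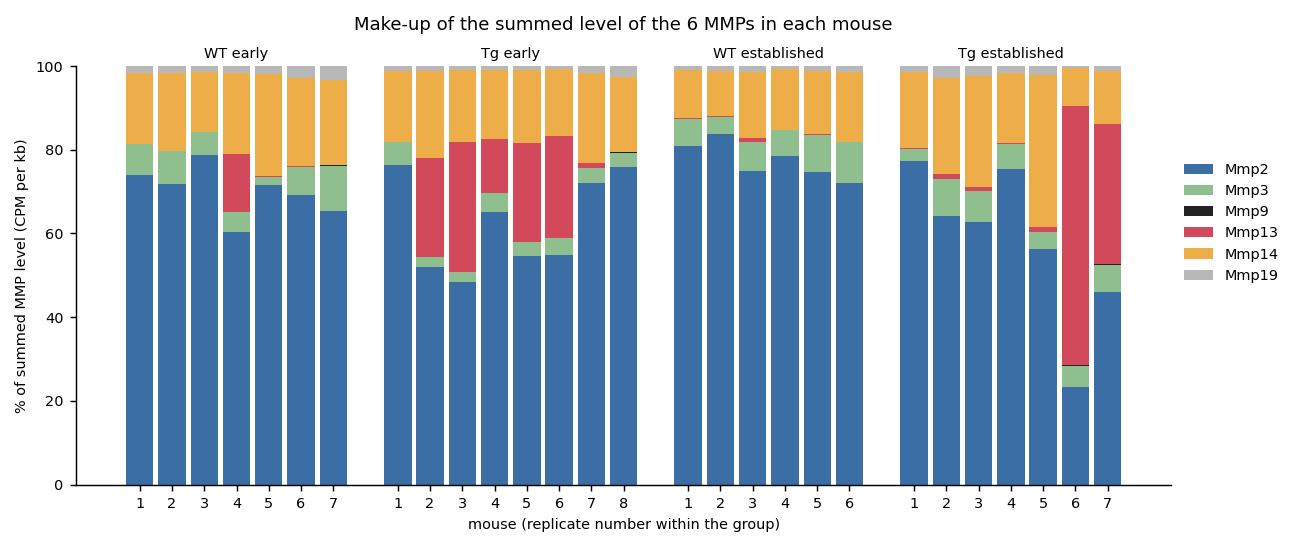
Share of each MMP (% of the summed CPM per kb of the 6 MMPs, y axis) in each mouse, by group and replicate number. *Mmp2* leads in 27 of the 28 mice, and *Mmp13* takes 62.0% in established Fosl2(Tg) replicate 6.

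*Mmp2* made up a median of 71.6% of the summed MMP level (CPM per kb) in early WT, 60.1% in early Fosl2(Tg), 76.8% in established WT and 62.8% in established Fosl2(Tg) mice. The share of *Mmp13* lay between 0.09% and 13.8% in early WT (median 0.14%) and between 0.07% and 30.9% in early Fosl2(Tg) mice (median 18.2%). It was at most 0.96% in established WT mice and reached 62.0% in established Fosl2(Tg) replicate 6, the mouse in which *Mmp2* was not the leading MMP. Among the TIMPs, *Timp2* held a median of 94.2% of the summed level in both early groups, 91.9% in established WT and 87.8% in established Fosl2(Tg) mice.

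*Timp1* (ENSMUSG00000001131, chromosome X, 20736316 to 20740976, plus strand) encodes an inducible inhibitor that binds proMMP-9 and most secreted MMPs. It ranged from 11.1 to 37.8 CPM in early WT (median 21.8) and from 18.7 to 49.3 CPM in early Fosl2(Tg) mice (median 30.8), with a log2 fold change of 0.38 (SE 0.27, FDR 0.863). Established WT mice lay between 5.97 and 14.5 CPM (median 10.1) and established Fosl2(Tg) mice between 4.11 and 46.8 CPM (median 7.48). Replicates 6 and 7 held 30.9 and 46.8 CPM and the 5 others at most 11.5 CPM, and the log2 fold change was 0.73 (SE 0.53, FDR 0.394), or -0.45 without those 2 mice.

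*Timp2* (ENSMUSG00000017466, chromosome 11, 118191887 to 118246566, minus strand) is the constitutive inhibitor that also takes part in the activation of proMMP-2. Over the 28 mice, its highest CPM was 3.20 times its lowest, the narrowest range of the members detected in every library. Within each group, however, another member had a smaller SD relative to its mean. *Timp2* ranged from 1811 to 4460 CPM in early WT, from 2283 to 4256 in early Fosl2(Tg), from 2212 to 3683 in established WT and from 1394 to 3312 CPM in established Fosl2(Tg) mice. The log2 fold change was -0.10 (SE 0.21, FDR 0.956) early and -0.32 (SE 0.19, FDR 0.278) at the established stage. A gene inside *Timp2* on the same strand, *Cep295nl*, shares 332 exon bases with it.

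*Timp3* (ENSMUSG00000020044, chromosome 10, 86136236 to 86185371, plus strand) is bound to the extracellular matrix and also inhibits ADAM and ADAMTS proteases. It ranged from 176 to 366 CPM in early WT (median 238) and from 98.5 to 258 CPM in early Fosl2(Tg) mice (median 175), where 4 of 8 lay below every WT mouse, with a log2 fold change of -0.40 (SE 0.20, FDR 0.834). Its established range was from 408 to 748 CPM in WT (median 507) and from 477 to 734 CPM in Fosl2(Tg) mice (median 645), with a log2 fold change of 0.20 (SE 0.15, FDR 0.429). *Timp3* lies within *Syn3*, which is on the other strand and shares 1734 exon bases. The correlation of both genes' log2 CPM, centred on group means, was 0.977 over the 28 libraries, and without strand their reads cannot be told apart.

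*Timp4* (ENSMUSG00000030317, chromosome 6, 115187773 to 115229336, minus strand), an inhibitor with a restricted tissue range, was the least abundant TIMP. It ranged from 0.62 to 5.34 CPM in early WT and from 0.30 to 3.09 CPM in early Fosl2(Tg) mice, with a log2 fold change of -0.32 (SE 0.42, FDR 0.922). Established mice ranged from 0.44 to 4.38 CPM in WT and from 1.06 to 8.68 CPM in Fosl2(Tg) mice, where 3 of 7 exceeded every WT mouse, with a log2 fold change of 1.02 (SE 0.56, FDR 0.255). Its exons share 1142 bases with *Syn2* on the other strand.

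Established mice were also compared with early mice of the same genotype, in 1 fit of all 28 libraries, with the reservation that this contrast also sets mostly females against males. In WT mice, 1 of 9 members was called, where 5.81% of all genes tested were called. This was *Timp3*, higher by a log2 fold change of 1.15 (SE 0.19, FDR 0.000959), and the established and early WT mice did not overlap. *Timp1* stood at a log2 difference of -1.26 (SE 0.44, FDR 0.0869), which did not pass the threshold. In Fosl2(Tg) mice, 2 of 9 members were called, where 47.8% of all genes tested were called. *Timp3* was higher by 1.75 (SE 0.18, FDR 9.41e-08), without overlap between the stages, and *Timp4* by 1.44 (SE 0.49, FDR 0.0179). *Timp3* stood at 436 and 659 CPM in the established WT and Fosl2(Tg) males, above the highest of the 15 early males at 366 CPM. With sex as a covariate, added after the data had been seen, its log2 fold changes were 1.06 (FDR 0.0441) and 1.66 (FDR 6.58e-05). All early mice were male and each established group held 1 male, so only those 2 mice set sex apart from stage in that fit. *Timp1* in Fosl2(Tg) mice was at -0.92 (SE 0.41, FDR 0.0644), and it was called, lower in established mice, with limma voom (-1.46, FDR 0.00102), in the fit blocked by replicate number (-1.21, FDR 0.0203) and without established replicate 6 (-1.18, FDR 0.0239) or 7 (-1.50, FDR 0.00192). In WT mice, *Timp1* was called lower with limma voom (-1.31, FDR 0.0217) and without Fosl2(Tg) established replicate 7 (-1.29, FDR 0.0393). Replicates 6 and 7 held the highest *Timp1* values of the established Fosl2(Tg) mice (30.9 and 46.8 CPM). The *Timp1* calls made without either of them therefore give no test of the stage difference. The call of *Timp4* did not hold with limma voom (log2 fold change 1.28, FDR 0.0634), without the established males (1.20, FDR 0.0553), nor without Fosl2(Tg) established replicate 2 (FDR 0.0632) or 5 (FDR 0.0515).

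The MMP to TIMP balance was computed in each mouse as the summed CPM per kb of the 6 MMPs over that of the 4 TIMPs, and is given as a description without a test, because the members were chosen with results of these data known. The ratio was below 1 in all 28 mice. It ranged from 0.126 to 0.258 in early WT (median 0.140) and from 0.143 to 0.594 in early Fosl2(Tg) mice (median 0.279). At the established stage it ranged from 0.144 to 0.324 in WT (median 0.209) and from 0.111 to 0.909 in Fosl2(Tg) mice (median 0.185). The mean log2 ratio was -2.59 ± 0.40 (SD, n = 7) in early WT and -1.87 ± 0.76 (n = 8) in early Fosl2(Tg) mice. The early difference of 0.72 was above the SD of the WT and below that of the Fosl2(Tg) mice. At the established stage the means were -2.25 ± 0.37 (n = 6) and -2.05 ± 1.21 (n = 7), a difference of 0.20, less than the spread between mice. Replicates 6 and 7 held ratios of 0.909 and 0.703, and the 5 other established Fosl2(Tg) mice held 0.111 to 0.185, within or below the WT range.

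**Figure D5:**
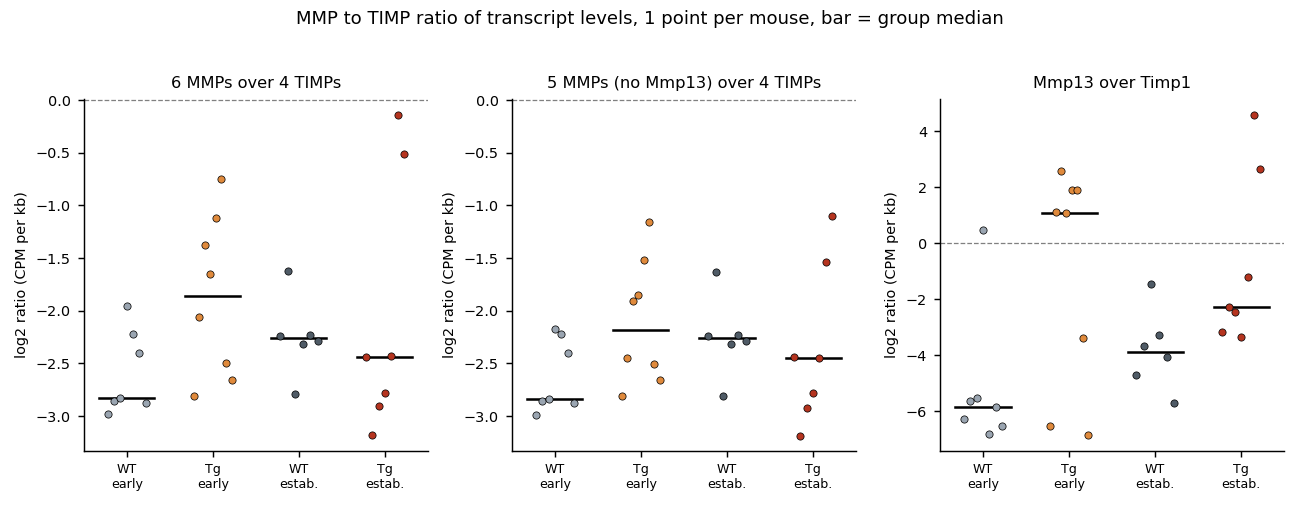
log2 ratio of summed MMP to summed TIMP level (CPM per kb) with and without *Mmp13*, and of *Mmp13* to *Timp1*, in each mouse, with bars for group medians and a dashed line at equal levels. The MMP sum is below the TIMP sum in all 28 mice, and *Mmp13* exceeds *Timp1* in the 8 mice above the *Mmp13* gap.

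Leaving *Mmp13* out of the sum lowered the early difference from 0.72 to 0.51 and turned the established difference from 0.20 to -0.09. Without *Mmp13*, established Fosl2(Tg) replicates 6 and 7 still had the highest ratios of their group, up to 0.467, against 0.323 for the highest established WT mouse. Of the single pairs, *Mmp14* over *Timp2*, the pair that activates proMMP-2, had medians of 0.0301 and 0.0537 in early WT and Fosl2(Tg) mice and 0.0332 and 0.0406 in established ones. *Mmp2* over *Timp2* had medians of 0.115 and 0.166 early and 0.173 and 0.132 established. *Mmp13* over *Timp1* had medians of 0.0174 and 2.12 early and 0.0687 and 0.207 established, and reached 24.2 in established Fosl2(Tg) replicate 6. *Mmp9* over *Timp1* was at most 0.0144 in both early groups and in established WT mice, and reached 0.0752 in established Fosl2(Tg) mice.

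The members did not vary independently between mice. Centred on group means over the 28 libraries, the log2 CPM of *Mmp13* correlated with that of *Mmp14* at r = 0.860, of *Mmp9* at 0.715, of *Mmp19* at 0.684 and of *Timp1* at 0.676, but with that of *Timp2* at -0.05 and of *Timp3* at -0.47. *Mmp19* and *Timp1* correlated at 0.845. These coefficients are descriptions over mice that share library scaling and, in part, library order. Among 11386 other genes (11387 for *Mmp9* and *Timp4*) with a mean of at least 5 CPM, those most like *Mmp13* were *Slpi* (r = 0.926), which encodes a secreted protease inhibitor, *Nfasc* (0.862) and *Mmp14*. The genes most like *Timp1* were *Gask1b* (0.938), *Cthrc1* (0.928) and *Adam12* (0.902). *Col3a1* (0.921), *Col5a2* (0.896) and *Lrrc15* (0.894) were most like *Mmp19*, and *Sh3pxd2b* (0.892 and 0.906) was the gene most like both *Mmp2* and *Mmp14*. For *Mmp2*, *Col23a1* (0.887) and *Cd74* (0.862) came next, and for *Mmp14*, *Slpi* (0.888) and *Col23a1* (0.885). *Mmp3* was most like *Ly6e* (0.852), *C2* (0.848) and *Col27a1* (0.808), and *Mmp9*, at its low counts, was most like *Vat1l* (0.839), *Cpxm1* (0.822) and *Cthrc1* (0.795). Besides *Syn3*, *Ildr2* (0.850) and *Cygb* (0.849) were most like *Timp3*. *Timp2* was most like *Pcdha4b* (0.937), *Lrp1* (0.934) and *Tapbp* (0.932), and *Timp4* most like *Usp38* (0.810) and *Hipk3* (0.765).

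Genes that act beside the members were read from lists of other MMPs (17 genes, 8 tested at both stages), of activators and inhibitors of MMPs (21 genes, 15 tested early and 14 established) and of collagen breakdown and uptake (13 genes, all tested). At the early stage none was called by edgeR, and an unadjusted p under 0.05 was reached by 1, 0 and 2 genes of the respective lists, against 917 of all 15138 genes tested. Between the established genotypes, no other MMP and no activator or inhibitor was called, with unadjusted p under 0.05 in 1 and 3 genes, against 4213 of all 15862 genes tested. Of the 13 genes of collagen breakdown and uptake 1 was higher and 2 were lower, where 6.51% of all genes tested were called. *Ctss*, a lysosomal cysteine protease of macrophages and other antigen-presenting cells, ranged from 31.3 to 56.5 CPM in WT and from 57.9 to 174 CPM in Fosl2(Tg) mice, without overlap, with a log2 fold change of 1.13 (SE 0.25, FDR 0.0228). *Ctsk*, cathepsin K, a cysteine protease that degrades collagen and is abundant in osteoclasts and some fibroblasts, ranged from 174 to 266 CPM in WT and from 52.7 to 179 CPM in Fosl2(Tg) mice, which overlapped, with a log2 fold change of -1.19 (SE 0.32, FDR 0.0442). *Itga2*, the collagen-binding integrin subunit alpha 2, ranged from 99.7 to 155 CPM in WT and from 25.1 to 99.7 CPM in Fosl2(Tg) mice, the lowest WT value lying just below the highest Fosl2(Tg) value, with a log2 fold change of -1.24 (SE 0.23, FDR 0.0141). The median log2 fold change of the 13 genes was -0.30, against 0.01 over all genes tested. Macrophage markers summed to 706 to 1223 CPM in established WT and 893 to 1555 CPM in established Fosl2(Tg) mice, and their part in the *Ctss* value was not tested.

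Markers of other cell types that make MMPs were read beside the members. The bone list (9 genes, of which 7 had a group median under 1 CPM at the established stage, and *Spp1* made up most of the rest) summed to 117 to 524 CPM in established WT and to 73.9 to 498 CPM in established Fosl2(Tg) mice, where replicates 6 and 7 were highest at 498 and 353 CPM. *Bglap* and *Ibsp*, which define osteoblasts, had medians of at most 0.19 CPM in every group. The cartilage list summed to 1082 to 1930 CPM in established WT and to 239 to 1959 CPM in established Fosl2(Tg) mice, with replicate 6 highest. *Comp* made up most of it, with medians of 1501 and 1178 CPM. *Col2a1* (28.8 and 8.18 CPM), *Matn3* (19.5 and 1.73 CPM), *Acan*, *Sox9*, *Hapln1* and *Col9a1* also had a lower median in established Fosl2(Tg) mice. *Col10a1* had a higher one (7.55 and 8.66 CPM), and *Matn1* was at 0 by median. The osteoclast list summed to 144 to 361 CPM in established Fosl2(Tg) mice, below the WT range of 365 to 474 CPM, and to 341 to 550 and 382 to 645 CPM in early WT and Fosl2(Tg) mice. *Ctsk*, which is also on the collagen breakdown list, and *Nfatc1* made up most of it. Their established medians were lower in Fosl2(Tg) than in WT mice (*Ctsk* 55.35 against 209.98 CPM, *Nfatc1* 149.5 against 193.8 CPM). *Calcr* and *Ocstamp*, both under 1 CPM, also had a lower median. *Acp5* (2.91 against 1.27 CPM) and *Atp6v0d2* (4.497 against 0.668 CPM) had a higher one, as had *Dcstamp* and *Oscar*, both under 1 CPM. Keratinocyte, erythroid, endothelial and adipocyte sums were at most 74.4, 127, 89.2 and 16.4 CPM in any mouse. The part of these cell types in the member levels was not tested.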

How the data were processed

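Total RNA of tail tendon fascicles from 28 mice was sequenced by the authors after ribosomal RNA depletion, with a library kit that does not mark strand. Reads were aligned by STAR against GRCm39 (GENCODE M26) and summed per gene by featureCounts. The deposited values are raw counts, and strand setting and handling of reads with several hits are not given in the sources used here, so genes that overlap are uncertain. Gene symbols came from GENCODE release M39 (25505 of 25719 identifiers). Totals per library ranged from 9645598 to 66894396 counts, which limits low genes such as *Mmp9* most.

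Groups came from the sample labels. Genes passing filterByExpr (minimum count 10, minimum total 15) were scaled by TMM and tested with the quasi-likelihood test of edgeR 4.0.16 in R 4.3.3, within each stage for genotype and in 1 fit of all libraries for stage and interaction. No covariate was used, and p-values were adjusted over all genes tested (Benjamini-Hochberg, called at 0.05). A prior count of 2 was added for log2 CPM. The fits were tested on simulated counts. Alternatives were DESeq2 1.42.0, limma 3.58.1 (voom with quality weights), RLE scaling, other filters, removal of muscle, erythroid and keratinocyte genes, all libraries in 1 fit, the replicate number as a block, males left out and each library left out. Sex as a covariate and the removal of established Fosl2(Tg) mice 6 and 7 were added after the data had been seen. Same-numbered early mice deviated together (correlations from 0.129 to 0.363 in 7 of 7 pairs), although no mouse correlated best with its own number, and the labels do not say what the number stands for. No libraries were near-identical.

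The members and lists were chosen with earlier results of these data known. The text names the 10 members, 4 pairs of them, genes of the wider lists that were called between genotypes, the 3 genes most correlated with each member and the marker lists. *Bglap*, *Ibsp*, *Spp1*, *Nfatc1*, *Calcr*, *Ocstamp*, *Acp5*, *Atp6v0d2*, *Dcstamp*, *Oscar* and the overlapping genes were named after their values were seen. Promoter sequence was read from GRCm39 by the canonical transcripts. Figures were drawn with matplotlib 3.10.9.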

Additional observations from a re-analysis of the deposited data

Results flagged for a closer look

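Of the 40 sets of CPM values (10 members in 4 groups), 5 held a mouse that stood apart from the rest of its group by Dixon's test at the 95% level. Chance flags about 1 set in 20 of independent, normally distributed values. That rate does not hold for skewed CPM of correlated genes in the same mice, so the 5 flags are a description. *Mmp13* in early WT replicate 4 was 66.9 CPM, with the next value at 0.67 CPM. *Mmp13* in established Fosl2(Tg) replicate 6 was 1022 CPM, with the next value at 404 CPM. *Mmp9* in the same mouse was 4.40 CPM, with the next value at 1.86 CPM. *Mmp19* in established WT replicate 2 was 11.4 CPM, with the next value at 6.76 CPM. *Timp4* in early WT replicate 4 was 5.34 CPM, with the next value at 2.08 CPM. The early WT mouse with high *Mmp13* thus also held the highest *Timp4* of its group.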

How the results depend on the processing

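Over 45 log2 fold changes (9 members in 5 comparisons), 396 of 441 alternative values kept their direction and side of the threshold, 8 lost and 8 gained a call in the same direction, and 29 changed sign. None of those 29 had been called, and 2 of them were called with the new sign, both without established Fosl2(Tg) mice 6 and 7: *Mmp3* at the established stage (FDR 0.0149) and *Mmp13* for stage in Fosl2(Tg) mice (FDR 0.00455). With 1 library left out, 957 of 1008 values kept both, 12 lost and 3 gained a call, and 36 changed sign. The number of members called early was 0 in all 8 alternatives and in all 15 fits with 1 library left out. At the established stage it was 2 with DESeq2 and 0 with no filter on low counts, limma voom, the replicate block, the males left out and sex as a covariate, and 0 to 1 with 1 library left out. For stage it was 2 in WT mice with limma voom and without established Fosl2(Tg) mice 6 and 7 (1 to 2 with 1 library left out), and 1 in Fosl2(Tg) mice without the males (1 to 3 with 1 library left out). For the interaction it was 0 in all 28 fits with 1 library left out. Without mice 6 and 7, which were picked for their values, 1 member was called between the established genotypes (*Mmp3*, lower, in place of *Mmp13*), 1 for the interaction (*Mmp2*) and 6 for stage in Fosl2(Tg) mice, counts that give no test of any of them. In fits with 1 library left out, the log2 difference in MMP to TIMP balance lay between 0.56 and 0.86 early and between -0.12 and 0.38 at the established stage. Over the other settings, it lay between 0.51 and 1.06 early and between -0.50 and 0.45 at the established stage. With means of log2 levels in place of sums, established Fosl2(Tg) replicates 6 and 7 held ratios of 1.21 and 1.05, so a ratio below 1 in every mouse holds for the sums. The cause of these shifts was not tested.

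With the replicate number as a block, no early member was called either. At the established stage, 4 of 6 same-numbered pairs correlated above 0.1 (from -0.22 to 0.69) and 2 mice correlated best with their own number. Replicate 5 of both genotypes, at 0.50, were the 2 established males, with library numbers 73 and 74. Whether the number pairs the mice is not given. With the block, the established log2 fold change of *Mmp13* was 1.43, and no call was made.

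Values that changed sign were as follows. For *Mmp3*, the established difference was -0.31 with limma voom, -0.68 with the block and -1.04 without mice 6 and 7, and the interaction was -0.34, -0.44 and -1.11 in the same settings and -0.022 with sex as a covariate. Its stage difference in Fosl2(Tg) mice was -0.52 without mice 6 and 7. For *Mmp13*, the interaction was -2.60 with limma voom and -2.79 without mice 6 and 7, and the stage difference was 0.36 in WT mice with limma voom. In Fosl2(Tg) mice it was -2.23 with limma voom, -0.65 with the block, -2.18 with sex as a covariate and -5.77 without mice 6 and 7. *Mmp14* was -0.035 at the established stage without mice 6 and 7, and 0.00018 for stage in WT mice with the block. *Mmp19* was 0.015 early with limma voom, and for stage in Fosl2(Tg) mice -0.17 with sex as a covariate and -0.26 without mice 6 and 7. *Timp1* was -0.11 at the established stage with the block and -0.45 without mice 6 and 7, and its interaction was -0.15 with limma voom, -0.10 with the block and -0.81 without mice 6 and 7. For stage in WT mice, *Timp2* was -0.0054 with limma voom and -0.36 with sex as a covariate, and *Timp4* was -0.31 with limma voom and -0.016 without the males.

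With 1 library left out, values that changed sign ranged as follows. *Mmp3* ranged from -0.16 to 0.18 early, from -0.24 to 0.31 at the established stage and from -0.33 to 0.29 for the interaction. *Mmp13* ranged from -0.56 to 4.46 for the interaction, from -3.46 to 1.52 for stage in WT mice and from -0.61 to 1.30 in Fosl2(Tg) mice. The sign of *Mmp13* turned in WT mice and for the interaction without early WT replicate 4, and in Fosl2(Tg) mice without established replicate 6. *Mmp14* ranged from -0.087 to 0.089 for stage in WT mice. *Mmp19* ranged from -0.088 to 0.058 early and from -0.085 to 0.27 for stage in Fosl2(Tg) mice, and *Timp1* from -0.21 to 0.50 for the interaction. *Timp2* ranged from -0.20 to 0.024 early and from -0.055 to 0.15 for stage in WT mice, and *Timp4* from -0.50 to 0.089 early and from -0.21 to 0.49 for stage in WT mice. Depth limits *Mmp9* and *Timp4*, with 196 and 1685 counts over all libraries, most.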
